A study of Mus musculus with 3 samples.

Results

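Retinoid metabolism was followed through 9 genes that make, bind or break down retinoic acid. They are Adh1, Aldh1a1, Aldh1a2, Aldh1a3, Aldh1a7, Crabp1, Crabp2, Rbp4 and Cyp26b1, 9 of the 24698 genes in the merged count table. They were named from their roles in this pathway, with earlier results of these data known, and all 9 were detected on each of the 3 days. The cells came from testes of adult C57BL/6 mice aged 8 to 12 weeks. SCA1+/cKIT- cells, a mesenchymal fraction of the testis, were sorted and placed on Matrigel in wells of 24-well plates at 100000 cells each, with 18 h of recovery in medium with 10% FBS. Expansion lasted 3 days with PDGFAA, PDGFBB and FGF2 (each 10 ng/ml) and 0.5 µM SAG, an agonist of Smoothened that switches on hedgehog signaling. Differentiation medium kept these 4 agents and added 5 mM LiCl2 and 10 µM DAPT, a blocker of Notch cleavage. The study describes the earliest library as cells in expansion medium and the later libraries as cells moved on to differentiation medium, and the labels do not give the number of mice. Each of days 4, 7 and 14 of the Leydig protocol was read as 1 library, all in 1 sequencing batch, by Drop-seq, in which a bead in a droplet tags each captured transcript with a cell barcode and a unique molecular identifier (UMI). Day 14 cells were also split by their steroidogenic enzymes, as enzyme-high cells with Cyp11a1 plus Hsd3b1 at or above 10 per 10000 UMIs (418 cells) and enzyme-low cells below it (555 cells).

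Retinol is oxidized to retinal by alcohol and retinol dehydrogenases, and retinal is oxidized to retinoic acid by the retinal dehydrogenases of the ALDH1A family. Retinoic acid acts through nuclear receptors, is carried in the cytosol by CRABP proteins and is removed by CYP26 enzymes, while RBP4 carries retinol in plasma. In the testis, retinoic acid is needed for spermatogonia to differentiate and enter meiosis, and Leydig cells are among the somatic cells that hold retinaldehyde dehydrogenase.

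Aldh1a1 and Aldh1a7 lie next to each other on chromosome 19 of GRCm38 (GENCODE M21), facing opposite ways and 49487 bases apart. Aldh1a1 spans chr19:20492715-20643465 on the plus strand and Aldh1a7 chr19:20692953-20727562 on the minus strand. Their upstream sequences are printed because the pair shows how alike 2 genes of this set are and because both were high on day 14. RefSeq promoter windows (GRCm38.p6) were available for 7 of the 9 genes. The printed part is cut before the first annotated exon base, and the capitals mark the longest run of bases that is identical in both windows. The Aldh1a1 stretch is chr19:20601718-20601960 on the plus strand (the second of its RefSeq starts), and the Aldh1a7 stretch is chr19:20727563-20727806 on the minus strand.
Aldh1a1: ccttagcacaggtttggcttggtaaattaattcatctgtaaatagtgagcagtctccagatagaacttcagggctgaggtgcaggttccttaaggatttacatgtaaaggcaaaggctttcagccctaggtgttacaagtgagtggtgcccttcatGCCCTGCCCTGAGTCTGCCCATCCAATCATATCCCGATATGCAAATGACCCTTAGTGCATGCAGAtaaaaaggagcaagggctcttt
Aldh1a7: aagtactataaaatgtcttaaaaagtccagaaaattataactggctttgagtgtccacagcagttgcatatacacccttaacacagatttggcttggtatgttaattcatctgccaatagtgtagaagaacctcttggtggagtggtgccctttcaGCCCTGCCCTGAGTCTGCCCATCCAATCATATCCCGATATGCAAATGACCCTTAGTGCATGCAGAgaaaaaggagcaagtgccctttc
The shared run is 65 bases long and stands at the same place in both genes, from 94 to 30 bases before the RefSeq start. Over the whole 250-base windows, 75.9% of 232 aligned bases were identical. The GENCODE transcripts that begin there were 89.8% identical over 2048 aligned bases. The reads were 94 bases long and came from the 3' end. In the last 500 bases of the Aldh1a7 transcript no window of that length occurred in the Aldh1a1 transcript, and the longest exactly shared run was 24 bases. The remaining pairs compared (Aldh1a1 or Aldh1a3 with Aldh1a2, Aldh1a1 with Aldh1a3, and Crabp1 with Crabp2) shared no 94-base window.

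Promoters of 3 further genes are shown because Adh1 and Cyp26b1 were high with Aldh1a1 on day 14 while Crabp1 was read as a single UMI. The stretches are chr3:138277335-138277493 on the plus strand for Adh1, chr6:84593909-84594060 on the minus strand for Cyp26b1 and chr9:54764498-54764747 on the plus strand for Crabp1. Capitals mark any match, on either strand, to the motifs searched, which were AGGTCA and AGTTCA of nuclear receptor sites, the TATA box core TATAAA, the CCAAT box and the GC box GGGCGG. No matches overlapped.
Adh1: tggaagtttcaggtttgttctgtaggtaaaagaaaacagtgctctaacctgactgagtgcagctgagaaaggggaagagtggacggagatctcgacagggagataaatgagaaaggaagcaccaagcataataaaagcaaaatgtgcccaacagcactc
Cyp26b1: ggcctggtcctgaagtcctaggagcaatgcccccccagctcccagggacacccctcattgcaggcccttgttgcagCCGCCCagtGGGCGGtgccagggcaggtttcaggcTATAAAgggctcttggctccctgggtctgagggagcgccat
Crabp1: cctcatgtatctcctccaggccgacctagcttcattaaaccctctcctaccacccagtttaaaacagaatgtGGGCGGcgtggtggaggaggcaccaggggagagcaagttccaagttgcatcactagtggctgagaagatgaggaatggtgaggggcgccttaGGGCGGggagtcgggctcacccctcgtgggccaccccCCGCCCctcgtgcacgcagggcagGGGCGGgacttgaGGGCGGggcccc
AGGTCA and AGTTCA were in none of the 250-base windows of the 7 genes, and were in 14.0% and 11.9% of all 32817 RefSeq windows. GGGCGG occurred 3 times in the Cyp26b1 window and 5 times in that of Crabp1, and also in 1 of the Rbp4 windows (32.7% of all windows held it). CCAAT stood 72 bases before the start in both Aldh1a1 and Aldh1a7, inside the shared run, and was also found in windows of Aldh1a2 and Rbp4 and once more in that of Aldh1a7 (33.8% of all windows held it). TATAAA was found in the windows of Cyp26b1, Aldh1a7 and 1 of the Rbp4 starts (12.4% of all windows), and the Adh1 window held none of these letters.

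The libraries held 2980 cells on day 4, 2171 on day 7 and 973 on day 14, with 12677110, 11627440 and 5324400 UMIs and a median of 2886.5, 3285 and 3272 UMIs per cell. No cell barcode was shared between libraries. Within each library, however, 2890 of the 6124 cell barcodes (47.2%) had another barcode 1 base away, and between 96.2% and 99.7% of such pairs differed at the last of the 12 bases. On day 14, 94.6% of these pairs lay on the same side of the enzyme cut, against 52.8% of pairs put together at random. Merging them left 4000 barcode families (2010, 1409 and 581), so the count of cells may be too high, while summed levels by day do not depend on it. Shares are therefore given over cells and, for some genes and pairs of genes, also over families. Intervals over cells count such neighboring barcodes as separate cells and may be too narrow. With 1 library per day there is no replicate error, no difference between days can be told apart from a difference between libraries, and no test was made. Levels are summed UMIs per 1000000 UMIs (CPM) with exact Poisson 95% intervals that cover counting error only. Because a UMI marks 1 captured transcript end, CPM values of different genes were compared without a length scale. The Leydig label was borne out on day 14 by the level of its markers, a summed 3864 CPM against 212 and 396 CPM on the earlier days. Detection alone did not set day 14 apart, since 7 of 7 Leydig markers were detected on each day. Other lists moved with the day as well. The myofibroblast list (6 genes) summed to 4707, 3837 and 207 CPM, with 6, 6 and 5 genes detected and Cnn1 at 0 on day 14. The mitotic list (8 of 8 detected each day) summed to 837, 775 and 120.01 CPM, and the macrophage list to 12.6, 26.9 and 241 CPM, with C1qb at 0 on day 14. The Sertoli list (6 genes, Amh at 0 on every day, Dhh and Rhox5 also at 0 on day 14) summed to 115, 515 and 626 CPM. The germ list summed to 116, 19.2 and 39.1 CPM, the endothelial list to 85.2, 116 and 24.4 CPM, and the stromal progenitor list to 965, 416 and 631 CPM. Their part in the differences between days was not tested.

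Adh1 encodes the class I alcohol dehydrogenase, which can oxidize retinol, and its transcript was low on days 4 and 7 and second to that of Aldh1a1 on day 14. Adh1 (chromosome 3, 138260991 to 138290698) stood at 17.6 CPM on day 4 (interval 15.4–20.1). It was 45.8 CPM by day 7 (42.0–49.9) and 1409 CPM by day 14 (1378–1442). The day 14 level was 30.7 times that of day 7 (ratio interval 28.2–33.6). The ratio was lower, at 18.7, when each cell had equal weight, and 16.8 when cells were thinned to 1500 UMIs.

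Among the retinal dehydrogenases, Aldh1a1 was the most abundant on all 3 days. It had 549 CPM at day 4 (536–562) and 438 CPM at day 7 (426–450.5). Its day 14 level of 3839 CPM (3787–3892) was 8.76 times day 7 (8.49–9.03). Aldh1a7, a rodent paralog of Aldh1a1 that is known for detoxifying aldehydes and is not an established maker of retinoic acid, had 11.2 CPM at day 4 (9.43–13.2), 9.20 CPM at day 7 (7.54–11.1) and 363 CPM at day 14 (347–379.6). Its intervals on days 4 and 7 overlap, and day 14 was 39.5 times day 7 (32.5–48.4). With equal weight per cell and with thinned cells this ratio was 24.3 and 25.8.

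The remaining retinal dehydrogenases ran the other way. Aldh1a2, the main enzyme of retinoic acid synthesis in the embryo, began at 89.0 CPM (83.9–94.3), was 55.9 CPM by day 7 (51.7–60.4) and 43.9 CPM by day 14 (38.5–49.96). Its day 14 level was 2.02-fold below day 4 (1.76–2.34), at the border of the 2-fold limit used for calls. The ratio was 0.502 under a stricter cell filter and 0.521 without the few cells of days 4 and 7 past the enzyme cut, and either ends that call. Aldh1a3, which also makes retinoic acid, peaked on day 7 with 185 CPM (177–193), between 75.3 CPM before (70.6–80.3) and 20.1 CPM after (16.5–24.3). From day 7 to day 14 it was 9.20-fold lower (7.58–11.3).

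Of all UMIs of Aldh1a1, Aldh1a2 and Aldh1a3, Aldh1a1 held 77.0% on day 4, 64.5% on day 7 and 98.4% on day 14. Aldh1a3 held 10.6%, 27.2% and 0.515% on the same days, and Aldh1a2 12.5% and 8.23% on days 4 and 7. Their sum was close on days 4 and 7 (713 and 679 CPM) and reached 3903 CPM on day 14. The retinal dehydrogenase transcripts of day 14 were thus nearly all Aldh1a1, and those of day 7 were the most mixed.

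Both CRABP transcripts, of cytosolic carriers of retinoic acid, stood highest on day 7. Crabp1 had 29.9 CPM at day 4 (26.96–33.1) and 62.5 CPM at day 7 (58.1–67.2), and Crabp2, which hands retinoic acid to its nuclear receptor, 1.42 CPM (0.842–2.24) and 8.34 CPM (6.77–10.2). On day 14 each was read as 1 UMI among 5324400. Crabp1 was 333-fold lower on day 14 than on day 7 (59.6–13167) and Crabp2 44.4-fold lower (7.79–1772), and the width of these intervals comes from that single UMI. The Crabp1 ratio of day 14 to day 7 was 0.000243 with equal weight per cell, and the Crabp2 ratio was 0.0225 over summed UMIs. Thinning left no day 14 UMI of Crabp1, and leaving out the top cell left no day 14 UMI of Crabp2. A count floor, used for any group without UMIs, then gave 0.0380 for Crabp1 and 0.0712 for Crabp2. Both values are set by that floor and are not measured ratios. Rbp4, the plasma retinol carrier, was near the limit of detection, with 20, 18 and 19 UMIs, which is 1.58, 1.55 and 3.57 CPM.

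Cyp26b1, which hydroxylates retinoic acid and so removes it, was 12.5 CPM at day 4 (10.6–14.6), 6.71 CPM at day 7 (5.30–8.37) and 171 CPM at day 14 (160.3–183). Day 14 was 25.5 times day 7 (20.2–32.6). Set against its substrate makers, Cyp26b1 came to 17.5 UMIs per 1000 UMIs of Aldh1a1, Aldh1a2 and Aldh1a3 on day 4, 9.88 on day 7 and 43.9 on day 14. The summed synthesis transcripts and the breakdown transcript were therefore both highest on day 14, when Crabp1 and Crabp2 were at 1 UMI each.

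**Figure D1:**
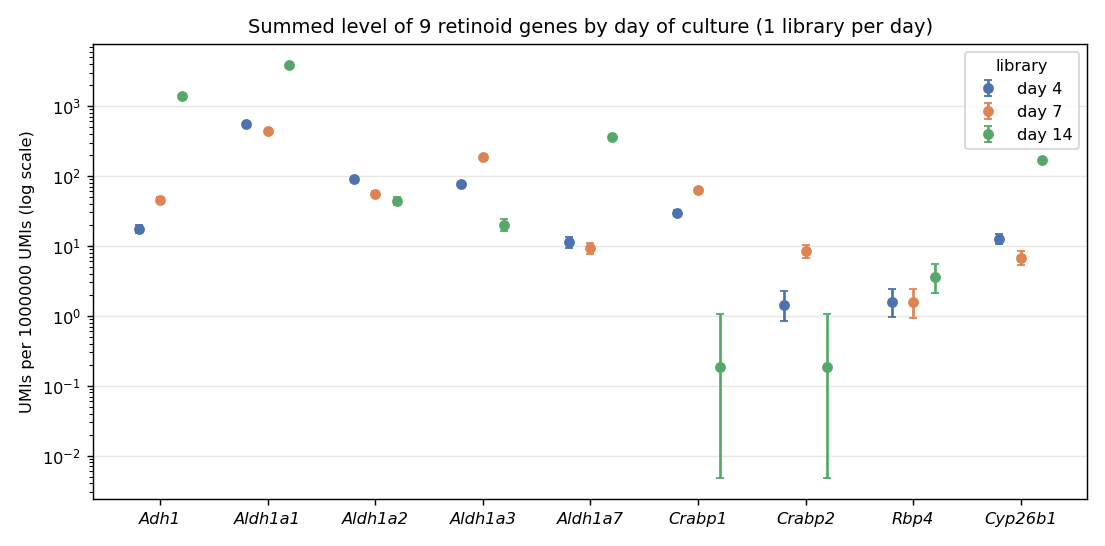
Summed level of each gene in UMIs per 1000000 UMIs (log axis) in the libraries of day 4, day 7 and day 14, with exact Poisson 95% intervals. Adh1, Aldh1a1, Aldh1a7 and Cyp26b1 stand highest on day 14 (1409, 3839, 363 and 171 CPM), and Aldh1a3, Crabp1 and Crabp2 on day 7.

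A gene was counted as higher or lower when its CPM differed at least 2-fold and it held at least 20 UMIs over both groups. From day 4 to day 7, 4 of the 9 genes were higher (Adh1, Aldh1a3, Crabp1 and Crabp2; 5.39% of all 12954 genes counted were higher) and 0 were lower (4.33% of all genes). Of these 4 calls, that of Adh1 was lost without the few early cells past the enzyme cut (a ratio of 0.903). That of Crabp1 was lost under TMM scaling (1.97) and without the highest doublet scores (1.73). Crabp2 had too few UMIs for a call in thinned cells, both here and from day 7 to day 14. From day 7 to day 14, 5 were higher (Adh1, Aldh1a1, Aldh1a7, Rbp4 and Cyp26b1; 12.4% of all 12656 genes) and 3 were lower (Aldh1a3, Crabp1 and Crabp2; 16.6%), with Aldh1a2 between. From day 4 to day 14, 8 genes had enough UMIs, of which the same 5 were higher (16.3% of all 12712 genes) and Aldh1a2, Aldh1a3 and Crabp1 were lower (17.6%). The median log2 ratio of the set was -0.03, 1.20 and 1.99 in these comparisons, beside 0.10, -0.14 and -0.06 over all genes counted. In the first and second comparison this median was the ratio of Rbp4 itself, and in the third it lay between Rbp4 and Aldh1a1. Genes moved both ways, so the medians do not describe a shared shift of the set. The Rbp4 entry rests on under 40 UMIs in all, and its ratio of 2.31 has an interval of 1.15–4.66. It fell short of 2-fold, or of 20 UMIs, when each cell was given equal weight or thinned.

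The share of cells with a UMI followed the levels. Every cell was thinned at random to 1500 UMIs, which left out 753, 429 and 179 shallower cells, so that depth was equal. A UMI of Aldh1a1 was then found in 39.2% of cells on day 4 (exact Clopper-Pearson 95% interval 37.2–41.3), 32.9% on day 7 (30.7–35.2) and 90.3% on day 14 (88.0–92.3). The Adh1 shares were 2.11%, 3.04% and 57.7%, those of Aldh1a7 1.44%, 1.49% and 32.2%, and those of Cyp26b1 1.89%, 1.21% and 19.9%. UMIs of Aldh1a1 were thus read in most day 14 cells. Barcodes that the cell filter removed, with a median of 319 UMIs on day 14, held Aldh1a1 at 3197 CPM and Adh1 at 1235 CPM, close to the levels in cells, and the part of free RNA in these shares was not tested. Aldh1a3 was seen in 9.43%, 19.1% and 3.27% of cells, Aldh1a2 in 8.49%, 6.66% and 4.79%, and Crabp1 in 2.25% and 4.82% on days 4 and 7. No thinned day 14 cell held Crabp1 (0 of 794 cells, with an upper bound of 0.464%). Before thinning, the day 14 shares were 93.3% for Aldh1a1, 68.7% for Adh1, 52.8% for Aldh1a7 and 35.5% for Cyp26b1. Over barcode families thinned to the same depth they were 88.8%, 56.4%, 31.7% and 17.1%. Too few cells that should lack these genes were present to set a background from free RNA, since 3 day 14 cells carried 3 or more of 10 macrophage markers, and 1 of these held an Aldh1a1 UMI.

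**Figure D2:**
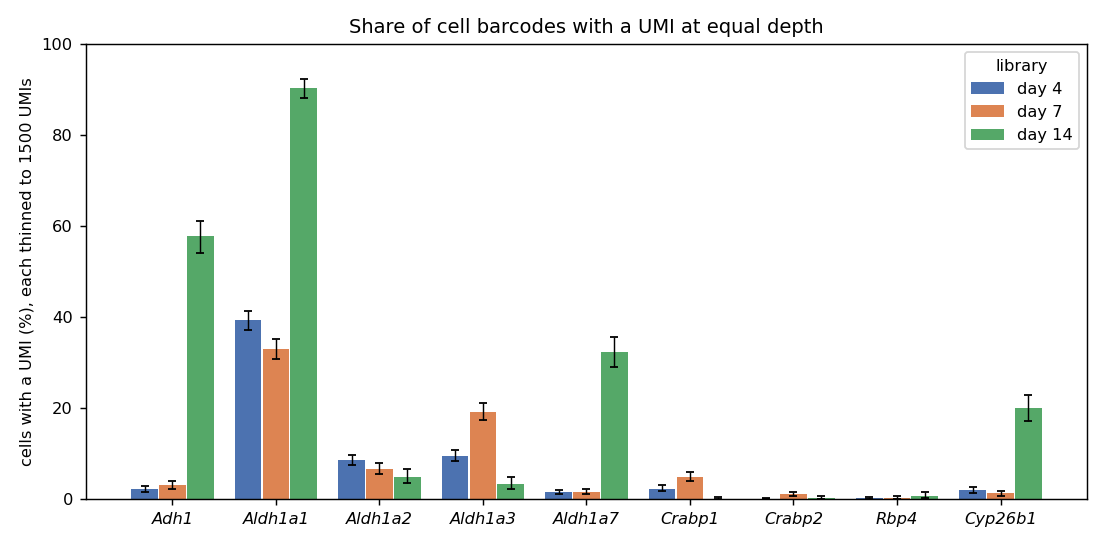
Share of cells (in percent) with at least 1 UMI of each gene after every cell was thinned to 1500 UMIs, by library, with exact Clopper-Pearson 95% intervals. Aldh1a1 reaches 90.3% of day 14 cells and Adh1 57.7%, while Aldh1a3 is seen most often on day 7 (19.1%).

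On day 14 the question was whether the retinoid genes followed the steroidogenic enzymes from cell to cell. Cyp11a1 cuts the side chain of cholesterol and Hsd3b1 makes progesterone from pregnenolone, the opening steps of androgen synthesis. Adh1 stood at 2145 CPM in enzyme-high cells (2089.6–2202) and 689.6 CPM in enzyme-low cells (659–722), a ratio of 3.11 (2.95–3.28). Aldh1a7 stood at 495 CPM (468–522) and 234 CPM (217–253), a ratio of 2.11 (1.92–2.32). Both were past 2-fold, 2 of the 6 genes with enough UMIs (4.01% of all 10376 genes counted were higher). Aldh1a1 had 4983 CPM (4899–5069) and 2720.1 CPM (2658–2783), a ratio of 1.83 (1.78–1.89), and Cyp26b1 had 185 CPM (169–202) and 158 CPM (144–174), a ratio of 1.17 (1.02–1.33). Aldh1a3 was the 1 gene that was lower in enzyme-high cells (7.14% of all genes were lower), with 10.6 CPM (7.07–15.4) against 29.4 CPM (23.2–36.6). Aldh1a2 had 56.6 CPM (47.9–66.4) and 31.6 CPM (25.2–39.1), a ratio of 1.79 (1.36–2.37). Rbp4 was read as 11 and 8 UMIs, and the single UMIs of Crabp1 and Crabp2 were in enzyme-high cells. Median log2 ratios were 0.86 over the 6 genes and -0.06 over all genes counted. Leydig genes that did not set the cut ranged more widely, from 2.05 for Star and 4.06 for Insl3 to 75.4 for Cyp17a1. The cut was no gap in the data, since 149 of the 973 cells lay between 5 and 20 per 10000 UMIs, and the nearest cells stood at 9.65 and 10.1. With the cut at 20 per 10000, the Aldh1a7 ratio was 1.82 and that of Aldh1a2 was 2.12, so that 1 call was lost and 1 gained. Aldh1a2 was also past 2-fold with equal weight per cell (2.13). After merging barcode families, the ratios were 3.09 for Adh1, 2.11 for Aldh1a7 and 1.82 for Aldh1a1. Macrophage markers were also unequal across the cut, at a summed 12.9 CPM in enzyme-high cells (5 of 10 detected, C1qa, C1qb and C1qc at 0) and 464 CPM in enzyme-low cells (9 of 10 detected, C1qb at 0). The myofibroblast list stood at 48.6 and 362 CPM (5 of 6 detected on both sides, Cnn1 at 0), the mitotic list at 80.5 and 159 CPM (8 of 8), and the Sertoli list at 852 and 404 CPM (3 of 6, with Amh, Dhh and Rhox5 at 0). Their part in these ratios was not tested.

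Cells were next ordered in 4 bins by their enzyme level. In the 324 cells without any Cyp11a1 or Hsd3b1 UMI, Aldh1a1 already stood at 2228 CPM, and it reached 3026, 4841 and 5086 CPM in the bins above. The lowest of these was still above the 438 CPM of day 7. Adh1 was graded over a wider span, at 401, 869, 1704 and 2464 CPM, and Aldh1a7 at 163, 279, 419 and 549 CPM. Cyp26b1 stayed within 128, 177, 198 and 175 CPM. Aldh1a2 was at 24.2, 36.2, 21.7 and 81.8 CPM, and its high-cell level came from the top bin. Aldh1a3 was at 35.8, 25.3, 9.06 and 11.8 CPM. The cells at 0 were shallower, with a median of 2025 UMIs against 5177, 3700 and 3426, and the part of depth in these values was not tested. Binning barcode families in place of cells gave Aldh1a1 at 2099, 2995, 4783 and 5090.1 CPM and Adh1 at 406, 812, 1660.1 and 2469 CPM.

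**Figure D3:**
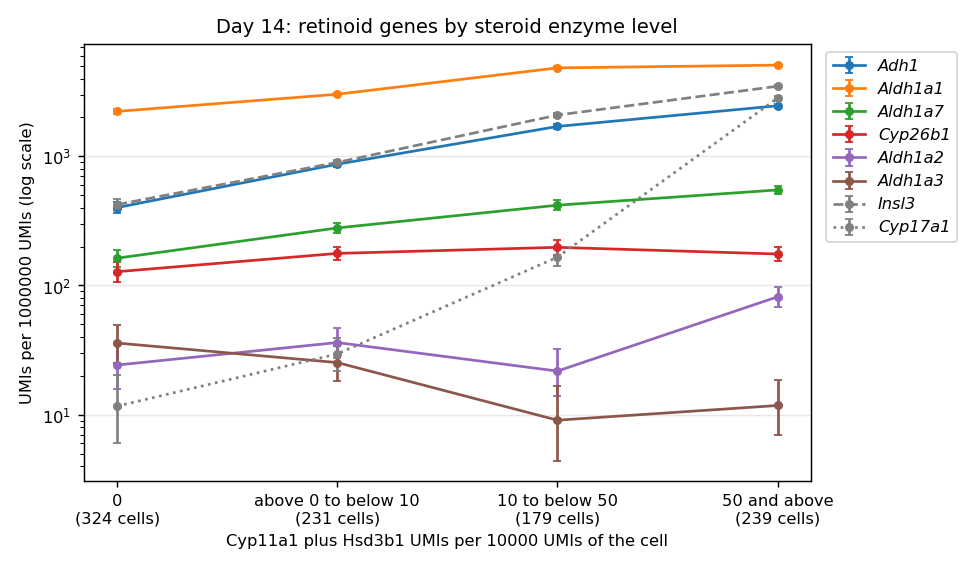
Day 14 level (UMIs per 1000000 UMIs, log axis) of 6 retinoid genes and, in gray, Insl3 and Cyp17a1, in 4 bins of cells by Cyp11a1 plus Hsd3b1 per 10000 UMIs, with exact Poisson 95% intervals. Adh1 runs from 401 to 2464 CPM, Aldh1a1 starts at 2228 CPM in cells without these enzymes, and Cyp26b1 stays between 128 and 198 CPM.

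Few cells of the early days had passed the enzyme cut, but they held much of the Adh1. On day 7, 33 cells (17 families) were at or above it, and these held 422 of the 533 Adh1 UMIs. Adh1 was 3083 CPM in them and 9.66 CPM in the other 2138 cells. On day 4, 8 cells (5 families) held 88 of 223 Adh1 UMIs, with 1450 CPM against 10.7 CPM, and 51 of these UMIs were in 1 cell. Without the early cells past the cut, Adh1 on day 7 was 0.903 times day 4, so that the direction of the ratio of 2.61 turned. The day 14 level was then 146 times day 7. The Adh1 level in these few day 7 cells lay above the 2145 CPM of the enzyme-high cells of day 14.

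The same 33 cells had 5188 CPM of Aldh1a1 against 382 CPM in the other day 7 cells, and 227 CPM of Aldh1a7 against 6.61 CPM. Cyp26b1 had 58.5 CPM in them on 8 UMIs, against 6.09 CPM. Aldh1a3 was nearly absent from them, with 2 UMIs (14.6 CPM) against 187 CPM elsewhere, and Crabp1 and Crabp2 were read as 1 and 0 UMIs. In Adh1, Aldh1a1 and Aldh1a3 these cells were nearer to the enzyme-high cells of day 14 than to the rest of their own library. On day 4 the 8 cells held 8322 CPM of Aldh1a1 against 511 CPM, and 0 UMIs of Aldh1a3, Crabp1, Crabp2 and Cyp26b1. Their Aldh1a2 level of 1038 CPM came mostly from 1 cell with 52 of 63 UMIs.

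Aldh1a7 was also read in proportion to its neighbor Aldh1a1. It came to 2.04 UMIs per 100 of Aldh1a1 on day 4, 2.10 on day 7 and 9.46 on day 14. On day 14 the figure was 9.92 in enzyme-high and 8.62 in enzyme-low cells. In the early cells below the cut it was 1.44 on day 4 and 1.73 on day 7, and in those above it 9.70 (49 Aldh1a7 UMIs) and 4.37 (31 UMIs). The proportion on both sides of the day 14 cut was thus above that of the early cells below it.

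Acta2, the smooth muscle actin, marked most cells of days 4 and 7, and the remaining cells were compared with them inside each library. On day 7, the 753 cells with Acta2 below 10 per 10000 UMIs held 512 of 533 Adh1 UMIs, 151 CPM against 2.55 CPM in the others, a ratio of 59.0 (38.2–96.2). Few cells carried this level, since 81 of the 753 cells (10.8%) had an Adh1 UMI, and the 33 day 7 cells past the enzyme cut, where Acta2 was at 153 CPM against 2863 CPM in the others, held 422 of the 533 UMIs. Cyp26b1 was 18.8 CPM in Acta2-low cells and 1.70 CPM in the others, a ratio of 11.1 (6.14–21.4). Aldh1a7 had a ratio of 7.94 (5.02–13.0) and Aldh1a1 of 2.57 (2.43–2.72). Crabp1 was lower there, with 25.3 CPM against 77.9 CPM, as did Aldh1a3, with 126 CPM against 209 CPM. The genes that were high on day 14 were thus the ones concentrated in Acta2-low cells on day 7, and Aldh1a3 and Crabp1, highest on day 7, were lower there, while Crabp2 was level at 8.53 and 8.26 CPM. On day 4 the same split gave 40.6 CPM against 11.0 CPM for Adh1, 801 against 477 CPM for Aldh1a1 and 32.4 against 5.17 CPM for Aldh1a7. The ratio of Crabp1 on day 4 was 2.99, but 111 of its 379 UMIs were in 1 cell, and it was 1.09 without that cell. Dividing cells, taken as those with the mitotic list at 10 per 10000 UMIs or more, had less Aldh1a1 on day 7 (243 against 482 CPM) and more Crabp1 (87.5 against 56.9 CPM). On day 4 Crabp1 was at 20.1 CPM in dividing cells and 32.1 CPM in the others, a ratio of 0.626, and 0.938 without its top cell. Aldh1a3 was at 203 CPM in dividing day 7 cells and 181 CPM in the others. Cells with a UMI of Tcf21, the transcription factor used to trace these progenitors, were deeper than the others (a median of 7596 against 3006 UMIs on day 7). They had 123 CPM of Aldh1a3 against 196 CPM, 36.7 CPM of Crabp1 against 67.3 CPM, and 5.48 CPM of Adh1 against 53.4 CPM. Most Adh1 UMIs were in the 33 cells past the enzyme cut, and all other day 7 cells together stood at 9.66 CPM. Higher in day 7 cells with a Tcf21 UMI were Aldh1a2 (76.7 against 52.0 CPM) and Aldh1a1 (486 against 429 CPM). Cyp26b1 was also higher on day 7, at 13.7 against 5.41 CPM, a ratio of 2.53, and 1.53 without its top cell. On day 4 Aldh1a1 was again higher in cells with a Tcf21 UMI (773 against 505 CPM). Aldh1a2 and Cyp26b1 were not, at 85.3 against 89.7 CPM and 11.1 against 12.7 CPM.

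**Figure D4:**
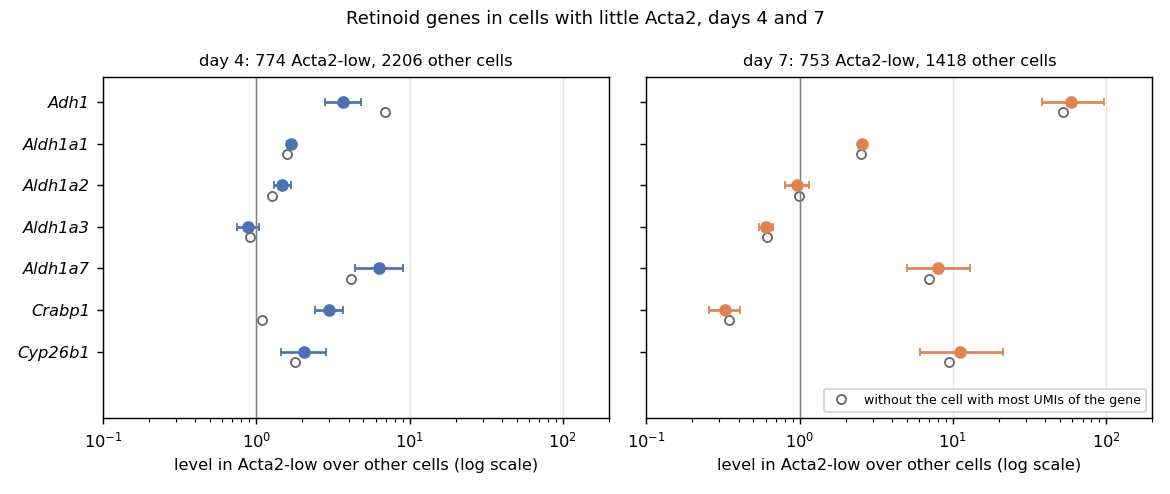
Level in cells with Acta2 below 10 per 10000 UMIs over the level in the other cells of the same library (log axis) on day 4 and day 7, with exact 95% counting intervals. Open circles leave out the cell with most UMIs of the gene. On day 7 Adh1, Cyp26b1 and Aldh1a7 lie far to the right (59.0, 11.1 and 7.94) and Crabp1 to the left, while the day 4 value of Crabp1 moves from 2.99 to 1.09 without 1 cell.

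The genes that peaked on day 7 were next looked for in the same cells. After thinning, Aldh1a3 was found in 18 of 84 day 7 cells with a Crabp1 UMI (21.4%, interval 13.2–31.7) and in 18.9% of the cells without one (17.1–20.9). The intervals overlap. Crabp2 was in 0 of these 84 cells (upper bound 4.30%) and in 1.09% of the cells without Crabp1. It was in 1 of 74 barcode families with Crabp1 (1.35%) and in 0.805% of those without. These counts are too small to tell the shares apart. Over families, Aldh1a3 was in 17.6% of those with Crabp1 and 19.0% of those without. With a Crabp2 UMI, 7 of 18 cells held Aldh1a3 (38.9%, 17.3–64.3), against 18.9% without (17.0–20.8), and these intervals overlap. Over families these shares were 27.3%, on 3 of 11, and 18.8%. Aldh1a3 was in 13.8% of cells with an Aldh1a1 UMI (11.1–16.9) and in 21.6% of the others (19.3–24.1). The latter pair gave 13.1% and 21.9% over barcode families. On day 14, Aldh1a7 was found in 39.7% of cells with Adh1 (35.2–44.4) and 22.0% of cells without (17.7–26.8), while Cyp26b1 was found in 19.9% of both. Over barcode families the Aldh1a7 shares were 36.6% and 25.3%, and their intervals overlap (31.2–42.3 and 19.9–31.4).

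Across the 973 day 14 cells, Pearson's r of ln(UMIs per 10000 + 1) was 0.40 for Adh1 with Aldh1a1, 0.31 for Adh1 with Aldh1a7 and 0.32 for Aldh1a1 with Aldh1a7. These cells share a library and differ in depth, so r is a description. Among the 7853 genes seen in at least 5% of cells, those most like Adh1 were Insl3 (r = 0.57), Gsta2 (0.54) and Fdx1 (0.54). Insl3 is a peptide hormone of Leydig cells and Fdx1 passes electrons to Cyp11a1. Aldh1a1 was most like Akr1cl (0.52), Gsta2 (0.52) and Pank1 (0.47), and Aldh1a7 most like Cyp11a1 (0.41), Hsd3b1 (0.38) and Gnas (0.37). Cyp11a1 and Hsd3b1 set the enzyme cut in these same cells, so their place here is no separate result from the Aldh1a7 ratio across it. For the other 6 genes, no gene reached 0.3 over cells on the day of their highest level. Over barcode families, the genes ranked nearest to Aldh1a3 on day 7 reached 0.34 (Timp1), 0.31 (Lox) and 0.31 (Oaf), and the nearest to Rbp4 on day 14 reached 0.30 (Ppp1r21).

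A wider list of 43 retinoid genes was counted for context, of which 38 were in the table. In the day 4 to day 7 comparison 20 had enough UMIs and 3 were lower (Fabp5, Tgm2 and Rarres2), with 0 higher, beside 4.33% and 5.39% of all genes. From day 7 to day 14, 3 of 19 were higher and 3 lower (Fabp5, Tgm2 and Rarres1), shares near the 12.4% and 16.6% of all genes. The higher ones were Dhrs3, which reduces retinal back to retinol, at 12.5 times day 7 (10.0–15.8), Scarb1, a lipoprotein receptor that takes up cholesterol and carotenoids, at 3.48 times (3.14–3.85), and Adh5 at 2.51 times (2.36–2.68). From day 4 to day 14 the same 3 were higher, with Dhrs3 at 17.9 times, and Fabp5 (8.10-fold), Tgm2 (4.76-fold) and Rarres2 (2.705-fold) were lower, beside 16.3% and 17.6% of all genes. Between enzyme-high and enzyme-low cells, 2 of 18 were higher, Scarb1 (2.03 times) and Rdh11 (2.17 times), and Rarres2 was lower, beside 4.01% and 7.14% of all genes. Fabp5, which carries retinoic acid as well as fatty acids, had 282, 123 and 34.7 CPM on days 4, 7 and 14. The list filed 7 genes as retinoic acid targets, which does not cover every gene that responds to retinoic acid. Of these, 4 had enough UMIs for the comparisons of day 14 with days 7 and 4. In both, 0 of these 4 were higher and 2 lower (Tgm2 with Rarres1 or Rarres2), at median log2 ratios of -0.65 and -1.14. Beside them, 12.4% and 16.3% of all genes were higher and 16.6% and 17.6% lower. Rarb was listed with the receptors, although it is itself a classic target of retinoic acid. It had 15 UMIs in 14 day 14 cells (2.82 CPM, 1.58–4.65) and 0 UMIs on days 4 and 7. It had too few UMIs for a call and was named after its values were seen. Its day 14 level was 11.9 times a floor of 3 counts over day 4, a value that leaves out the counting error of its 15 UMIs. Cyp26a1 was read as 1 UMI in all 3 libraries together.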

How the data were processed

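Drop-seq UMI counts of days 4, 7 and 14 (1 library each) were read from the merged table. The authors made these counts, as deposited, without normalization: reads were aligned to GRCm38 and UMIs counted per gene and barcode with Drop-seq tools. STAR 2.5.2a, Picard 2.6.0 and SAMtools 1.2 are named in the submitters' processing notes, and the annotation release is not given in the sources used here. Cells of the merged table met the stated filter (500 genes or more, mitochondrial share up to 10%), and 0 of its entries differed from the tables per day. Its other 495 columns belong to no sample here and were not used.

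Values were computed in Python 3.11.15 (numpy 2.4.6, scipy 1.17.1, pandas 2.3.3). Ratios carry exact binomial intervals. A group at 0 was set to a floor of 3 counts. Shares carry exact Clopper-Pearson intervals, with thinning at seed 1. The 2-fold calls and ratio intervals were checked on simulated counts with Poisson error only, without the spread between cells seen here. Doublets were kept, and the 6% of cells with the highest Scrublet scores (scanpy 1.11.5) were left out as an alternative. TMM scaling was from edgeR 4.0.16. Sequences were aligned with Biopython 1.88.

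The 9 genes are described in full, and wider-list genes are named where past 2-fold. Members and lists were chosen with earlier results of these data known. Barcode families, early cells past the cut and single top cells were examined as alternatives after the data had been seen. With 1 library per day no test is given.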

Additional observations from a re-analysis of the deposited data

Results flagged for a closer look

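Barcodes that the cell filter removed also held Aldh1a1, as given above for day 14. It was singled out because these barcodes enter none of the main comparisons between groups and have no control beside them. The removed barcodes had 516 CPM on day 4 (320 barcodes), 418 CPM on day 7 (229 barcodes) and 3197 CPM on day 14 (327 barcodes). On day 14 they also held 1235 CPM of Adh1, 266 CPM of Aldh1a7 and 250.3 CPM of Cyp26b1, with a median of 319 UMIs per barcode.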

How the results depend on the processing

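No paired analysis was possible because each day has 1 library and its replicate number pairs nothing. Among genes past 2-fold, the direction turned for Adh1 from day 4 to day 7, at 0.903 without the early cells at or above the enzyme cut. Without those cells, and likewise without the single top cell of each gene, the number of genes lower on day 7 was 1 (Cyp26b1) in place of 0. With no minimum of UMIs, the share of all genes past 2-fold was 28.1% in place of 9.72% from day 4 to day 7 and 30.3% in place of 11.2% across the enzyme cut. Crabp1 from day 4 to day 7 was 1.73 without the highest doublet scores and 2.80 without its top cell, and the cause was not tested. TMM scaling (factors 0.959, 1.02 and 1.03) gave 1.97. Among genes not past 2-fold from day 4 to day 7, Aldh1a7 went from 0.822 to 1.23 with equal weight per cell and 1.06 thinned. Rbp4 went from 0.981 to 1.25 with equal weight, 1.16 without the highest doublet scores and 1.02 under the stricter filter. Rbp4 from day 7 to day 14 was 1.47 with equal weight. Depth limits Rbp4, Crabp2 and the day 14 values of Crabp1 most.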
